A study of Mus musculus with 6 samples.

Results

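The genes of cholesterol and fatty acid synthesis were examined as a module of 28 named genes, all 28 of which were found among the 27179 gene IDs of the count table. They were chosen by name as sterol pathway enzymes, the SREBP transcription factors with their control proteins, and the enzymes that make and desaturate fatty acids. The libraries were made from bone-forming cells of the mouse skull vault at 5 days of age, sorted by GFP whose expression depends on Osteocalcin-Cre, a recombinase made in osteoblasts, and collected into Trizol. The labels give 3 libraries as a conditional knockout (cKO) of Cdc73, also named Hrpt2, and 3 as wildtype. The genotype entries of the knockout libraries read KO, and their titles read Flox. The labels give strain C57Bl/6J for all libraries and describe the sorting as the same for both genotypes. Since they do not state whether libraries are single pups or pools, p-values reflect only sample-to-sample spread, part of which may be technical. Deletion by this Cre is limited to cells that have expressed it.

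Cholesterol is built from acetyl-CoA through mevalonate, isoprenoid diphosphates, squalene and lanosterol. The SREBP proteins are made as precursors in the endoplasmic reticulum membrane, where Scap carries them to the Golgi for activation when sterol is low and the Insig proteins hold them back when sterol is high. The activated factors raise transcription of the sterol enzymes, and of the fatty acid enzymes Fasn, Acaca, Acly and Scd, together with NF-Y, which binds CCAAT boxes. In bone the mevalonate pathway is best known as the target of nitrogen-containing bisphosphonates, which block the product of Fdps in osteoclasts.

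Library totals ran from 14837272 to 16380767 counts in knockout and from 13591925 to 20993962 in wildtype. Cdc73 itself was detected in every library, at 14, 14.7 and 14.4 CPM in knockout 1, 2 and 3 and at 20.5, 12.8 and 21.7 CPM in wildtype 1, 2 and 3, where CPM is the count scaled to library size with TMM factors. Its difference was not called by edgeR (log2 fold change -0.36 ± 0.22, adjusted p = 0.428). Counts over a whole gene need not register a deletion of some exons, so this gene did not check each label. Osteoblast markers were abundant everywhere, with Col1a1 at 144000 to 215000 CPM in knockout and 169000 to 186000 CPM in wildtype. Of 8 osteoblast markers 1 had a positive and 7 a negative log2 fold change (median -0.27), and 0 were called. Their sum was 233000 to 342000 CPM in knockout and 277000 to 299000 CPM in wildtype, with overlap. Most of that sum was Col1a1, so it says little of the other osteoblast markers. In 1 of the 8 every knockout library lay below every wildtype library (12.5%, against 9.81% of all genes tested). At an unadjusted edgeR p under 0.05, 2 of the 8 were lower, against 6.35% of all genes tested. Markers of several other cell types had higher sums in knockout, most of all in knockout 1, while muscle markers were highest in wildtype 2. The summed level of 8 chondrocyte markers was 19100, 10100 and 6310 CPM in knockout 1, 2 and 3 and 5440, 792 and 848 CPM in wildtype 1, 2 and 3, with a positive fold change for 8 of 8. Across genes the Pearson correlation of wildtype 1 was 0.973 to 0.983 with knockout libraries, and 0.94 and 0.945 with wildtype 2 and 3. Wildtype 2 and 3 correlated with each other at 0.925. A chi-square of the counts per degree of freedom, lower where libraries are more alike, gave another order. For wildtype 1 it was 30.3 and 54.1 with wildtype 2 and 3, and 52.8 to 72.5 with knockout libraries. Results are also given without wildtype 1.

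None of the 28 genes passed the test of knockout against wildtype. The quasi-likelihood test of edgeR, adjusted by Benjamini-Hochberg, called 0 of 28 genes, with adjusted p from 0.291 to 0.995, and 0 of the 13505 genes tested (0%). At an unadjusted p under 0.05 there were 3 members, Insig1 with a positive fold change and Fdps and Mvk with negative ones. Over all genes tested, 8.26% were higher and 6.35% lower at that level. The module had no common direction: 14 members had a positive and 14 a negative log2 fold change, with a median of -0.04 against -0.01 over all genes tested. In 2 members the groups did not overlap. Acly lay higher in every knockout library, a pattern found in 10.6% of all genes tested, and Mvk lay lower in every one, a pattern found in 9.81%.

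**Figure D1:**
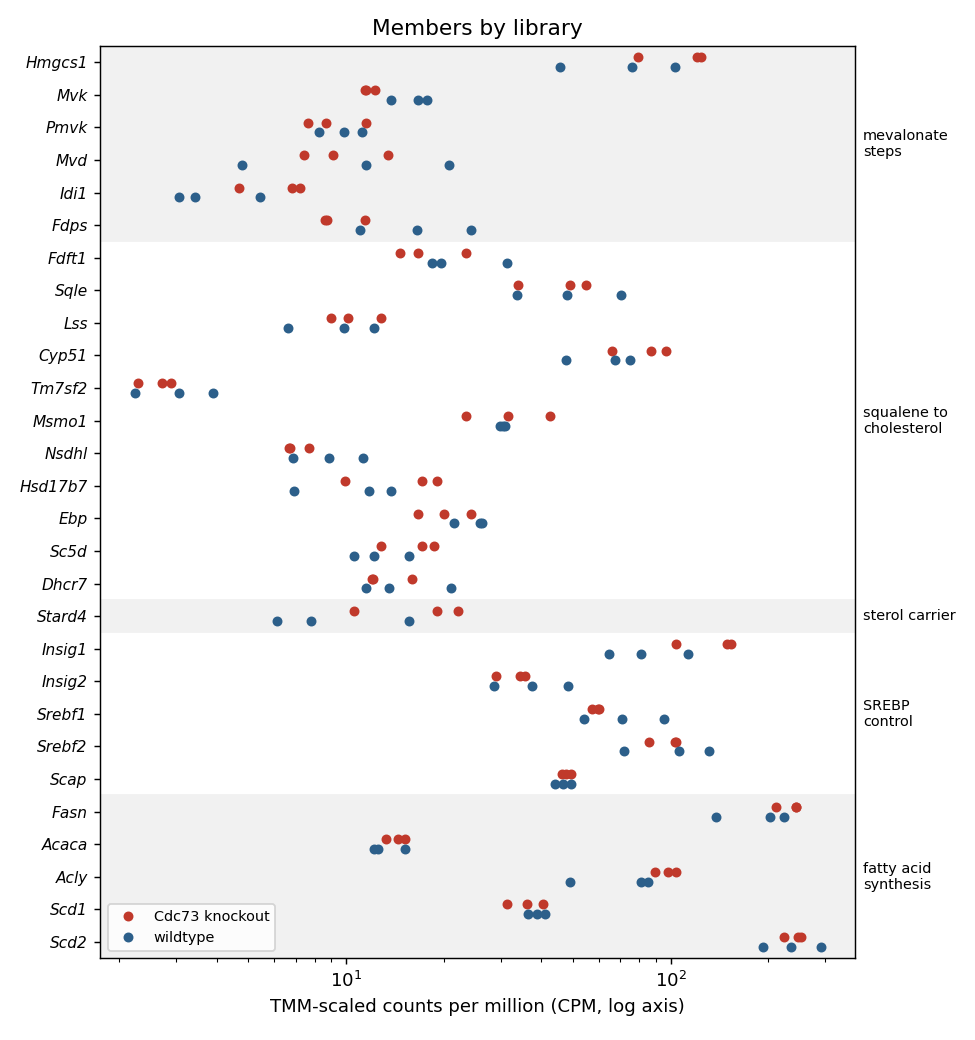
Level of each of the 28 genes in each library, as TMM-scaled CPM on a log axis, with knockout points above wildtype points in each row and genes grouped by role. The groups overlap in 26 rows, and the exceptions are Mvk and Acly.

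The size of change that these libraries allow was bounded for most members. The 95% confidence interval of the log2 fold change lay within -1 to 1 for 20 of the 28 genes, and for 8 it reached or passed that range. Those 8 were Hmgcs1, Mvd, Idi1, Fdps, Tm7sf2, Hsd17b7, Stard4 and Insig1. The narrowest interval among the members was that of Scap, from -0.28 to 0.35. For Scd2, the member with the highest mean level per transcript length over all 6 libraries, it ran from -0.42 to 0.43. A p above the threshold does not show that the genotypes were alike in the other genes, and in bulk RNA fewer cells of a type cannot be told apart from less RNA per cell.

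**Figure D2:**
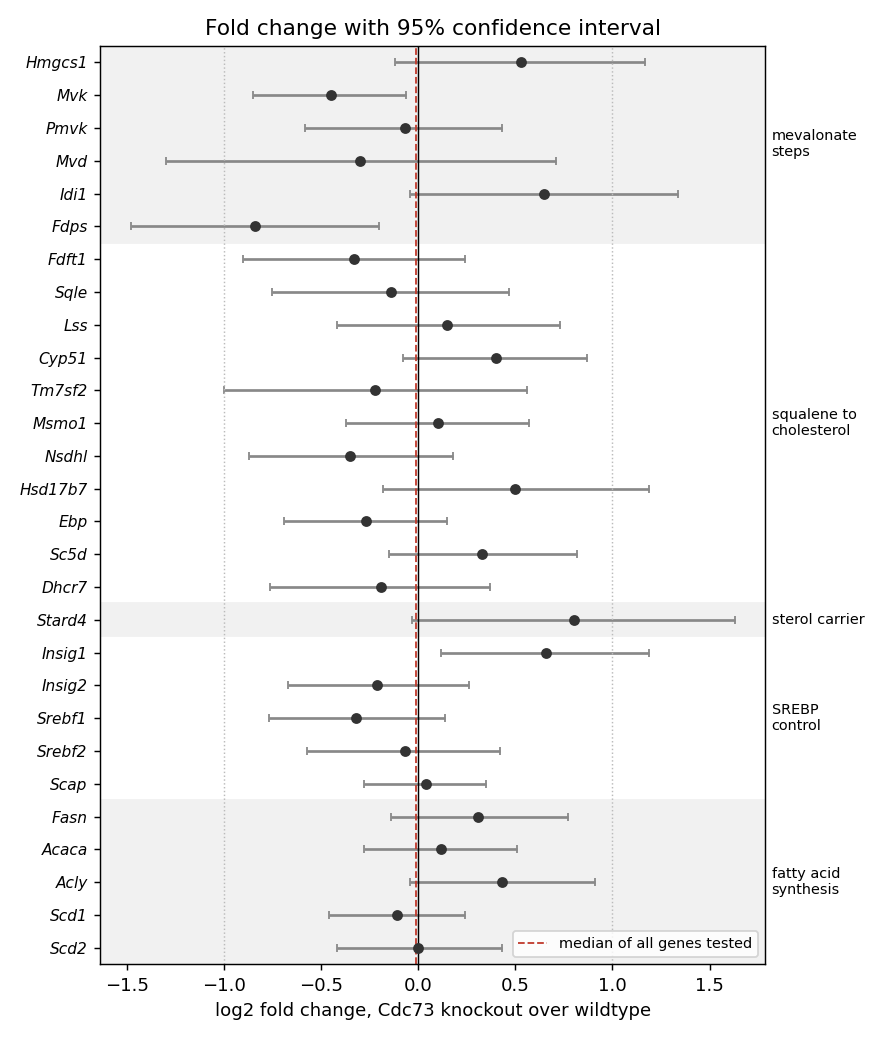
Log2 fold change of knockout over wildtype for each gene, with its 95% confidence interval from edgeR. The intervals of Mvk, Fdps and Insig1 do not reach 0, the dashed line marks the median of all genes tested, and the dotted lines mark -1 and 1.

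The promoters of 22 members were found in the reference table, as 30 windows of 300 bases. Each window runs from 250 bases before a RefSeq start to 50 bases after it. Fdps, Fdft1, Sqle, Stard4, Scd1 and Scd2 had no window there and were not searched. The 4 windows shown belong to Hmgcs1, Idi1 and Insig1, which had 3 of the 4 most positive fold changes of the module, and to Mvk, whose groups did not overlap in the opposite direction. Capitals mark the CCAAT box (CCAAT), the core of the sterol regulatory element (TCACNCCAC) and the E-box (CACGTG), each searched on both strands, so that a reverse CCAAT box reads ATTGG. The sequences are from RefSeq on GRCm38.p6, 5′ to 3′ along the plus strand, on which all 4 genes lie, and they span chr13:119690101-119690400 for Hmgcs1, chr13:8885356-8885655 for Idi1, chr5:28071162-28071461 for Insig1 and chr5:114444019-114444318 for Mvk.
Hmgcs1: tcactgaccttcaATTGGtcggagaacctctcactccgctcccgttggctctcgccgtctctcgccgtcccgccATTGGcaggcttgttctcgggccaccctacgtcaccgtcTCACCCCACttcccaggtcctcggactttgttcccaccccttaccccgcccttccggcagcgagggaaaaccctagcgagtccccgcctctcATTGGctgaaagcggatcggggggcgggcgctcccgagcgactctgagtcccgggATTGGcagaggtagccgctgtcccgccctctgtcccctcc
Idi1: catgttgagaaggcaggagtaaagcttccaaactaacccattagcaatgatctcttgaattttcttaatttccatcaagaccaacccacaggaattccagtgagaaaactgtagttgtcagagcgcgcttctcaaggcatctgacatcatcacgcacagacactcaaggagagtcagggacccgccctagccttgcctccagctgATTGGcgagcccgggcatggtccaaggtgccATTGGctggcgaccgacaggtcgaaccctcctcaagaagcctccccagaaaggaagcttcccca
Insig1: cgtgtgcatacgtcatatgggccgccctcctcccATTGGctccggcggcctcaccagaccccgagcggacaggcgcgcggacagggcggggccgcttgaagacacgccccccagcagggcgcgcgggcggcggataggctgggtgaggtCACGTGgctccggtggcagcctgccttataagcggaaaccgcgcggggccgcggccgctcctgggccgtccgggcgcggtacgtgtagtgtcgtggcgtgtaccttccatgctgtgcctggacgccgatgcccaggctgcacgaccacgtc
Mvk: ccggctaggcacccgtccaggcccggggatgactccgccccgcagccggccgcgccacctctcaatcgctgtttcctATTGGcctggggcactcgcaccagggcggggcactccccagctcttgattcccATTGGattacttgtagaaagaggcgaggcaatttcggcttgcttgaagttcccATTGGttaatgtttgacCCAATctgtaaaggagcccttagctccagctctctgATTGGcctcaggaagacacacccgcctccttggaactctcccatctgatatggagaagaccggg

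The CCAAT box was the feature most members shared. It stood in 21 of the 30 member windows (70.0%), against 37.4% of all 32851 windows in the table. By gene it stood in 20 of the 22 member genes (90.9%), against 41.1% of all genes with a window. Mvk held 5 copies and Hmgcs1 held 4. The sterol element core was found in 1 member window, that of Hmgcs1, and in 1.24% of all windows. With the looser form TCACNCNAC a second window, that of Nsdhl, was added, against 2.7% of all windows. The E-box, which SREBP proteins can also bind, stood in 6 of 30 member windows (20.0%) and in 7.15% of all windows. Insig1, Hsd17b7, Sc5d, Dhcr7 and Scap held it, or 22.7% of member genes, against 8.09% of all genes with a window. The windows of Scap overlap and hold the same E-box. CCAAT boxes thus stood in genes with positive (Hmgcs1, Idi1) and negative (Mvk, Mvd) fold changes, and a match is a description of these letters, not a binding site. Only these windows and these exact letters were searched, so the lack of a match does not show that a gene lacks a sterol element.

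The 6 enzymes of the mevalonate steps were split by direction. Hmgcs1 (gene ID 208715, chromosome 13, 119690351 to 119708260 in mm10), which makes the HMG-CoA of the pathway, measured 124, 121 and 79.6 CPM in knockout 1, 2 and 3, against 103, 76.3 and 45.6 CPM in wildtype 1, 2 and 3. Knockout 3 lay below wildtype 1, and the groups overlapped (log2 fold change 0.53 ± 0.29, edgeR adjusted p = 0.394). Idi1, the isomerase that interconverts the isoprene units, had the same order of libraries, with 7.20, 6.81 and 4.69 CPM in knockout and 5.42, 3.41 and 3.05 CPM in wildtype. Its log2 fold change was 0.65 ± 0.31 (edgeR adjusted p = 0.357).

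Mevalonate kinase and farnesyl diphosphate synthase had negative fold changes. Mvk (gene ID 17855, chromosome 5, 114444264 to 114460591) phosphorylates mevalonate and measured 11.5, 12.3 and 11.4 CPM in knockout 1, 2 and 3, against 13.8, 16.6 and 17.7 CPM in wildtype 1, 2 and 3. The knockout libraries lay close together and all below wildtype 1, the lowest wildtype library (-0.45 ± 0.18, edgeR adjusted p = 0.313). Fdps (gene ID 110196, chromosome 3, 89093588 to 89101967) joins isoprene units into farnesyl diphosphate, from which both sterols and protein prenyl groups are made. It measured 11.4, 8.62 and 8.72 CPM in knockout and 11.0, 24.3 and 16.5 CPM in wildtype, so that knockout 1 lay just above wildtype 1. Its fold change was the most negative of the 28, at -0.84 ± 0.28 (edgeR adjusted p = 0.291). Without wildtype 1 it was -1.1 with an adjusted p = 0.0477, the only member called in any of the fits, and without wildtype 2 it was -0.53 (adjusted p = 0.429).

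The remaining mevalonate enzymes gave no separation. Mvd, the decarboxylase that yields the isoprene unit, was the most variable member, with 13.5, 9.10 and 7.40 CPM in knockout 1, 2 and 3 and 11.5, 20.8 and 4.78 CPM in wildtype 1, 2 and 3. Both the highest and the lowest of these values were wildtype, and the fold change of -0.30 ± 0.45 became 0.27 without wildtype 2. Pmvk, the second kinase, ranged from 7.65 to 11.5 CPM in knockout and from 8.24 to 11.2 CPM in wildtype (-0.07 ± 0.22).

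From squalene to cholesterol, 11 enzymes had log2 fold changes from -0.35 to 0.50 with a median of -0.14, and 0 of the 11 had an unadjusted p under 0.05. Cyp51, the cytochrome P450 that removes a methyl group from lanosterol, had the smallest p of the group. It measured 96.6, 87.3 and 65.9 CPM in knockout 1, 2 and 3, against 67.5, 74.8 and 47.7 CPM in wildtype 1, 2 and 3 (0.40 ± 0.21, edgeR adjusted p = 0.389). Only knockout 3 lay within the wildtype range. Hsd17b7, a ketoreductase of the demethylation steps, measured 19.0, 17.1 and 9.95 CPM in knockout and 13.8, 11.8 and 6.93 CPM in wildtype (0.50 ± 0.30). Sc5d, a sterol desaturase, was at 18.6, 17.1 and 12.8 CPM in knockout and 15.6, 10.6 and 12.2 CPM in wildtype (0.33 ± 0.22). In both genes knockout 1 and 2 lay above every wildtype library and knockout 3 did not.

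The entry enzymes of this branch had their highest value in wildtype 2. Fdft1, squalene synthase, measured 23.5, 16.7 and 14.7 CPM in knockout 1, 2 and 3 and 18.4, 31.3 and 19.6 CPM in wildtype 1, 2 and 3 (-0.33 ± 0.26). Sqle, which oxidizes squalene and is a control point of the pathway, measured 54.9, 48.9 and 33.8 CPM in knockout and 47.8, 70.2 and 33.7 CPM in wildtype (-0.14 ± 0.27). The ranges overlapped fully for Sqle, with the highest and the lowest value both in wildtype. Nsdhl (-0.35 ± 0.23), Ebp (-0.27 ± 0.19), Tm7sf2 (-0.22 ± 0.35) and Dhcr7 (-0.19 ± 0.25) also had negative values, none of them called. Dhcr7, which forms cholesterol in the last step of its route, measured 16.0, 12.0 and 12.1 CPM in knockout and 13.6, 21.1 and 11.5 CPM in wildtype. Lss, which closes the sterol rings, and Msmo1, a methylsterol oxidase, were at 0.15 ± 0.26 and 0.10 ± 0.21.

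Stard4, a soluble protein that moves sterol between membranes, had the most positive fold change. It measured 22.1, 19.0 and 10.6 CPM in knockout 1, 2 and 3, against 15.6, 6.12 and 7.82 CPM in wildtype 1, 2 and 3. Knockout 3 lay below wildtype 1, and the difference did not pass the test (0.80 ± 0.37, edgeR adjusted p = 0.351). Without wildtype 1 it was 1.29 (adjusted p = 0.0611), without wildtype 2 it was 0.54 (adjusted p = 0.497), and over all omissions of 1 library it ran from 0.54 to 1.29.

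Among the SREBP control genes Insig1 had a positive and Insig2 a negative fold change, neither of them called, and the difference between them was not tested. Insig1 (gene ID 231070, chromosome 5, 28071412 to 28078662), which holds Scap in the endoplasmic reticulum and is itself induced by SREBP, measured 149, 154 and 104 CPM in knockout 1, 2 and 3, against 113, 81.1 and 64.4 CPM in wildtype 1, 2 and 3. Knockout 3 lay below wildtype 1 (0.66 ± 0.24, edgeR adjusted p = 0.302). Insig2, the paralog that is not strongly driven by SREBP, measured 34.4, 29.0 and 35.6 CPM in knockout and 37.4, 28.5 and 48.3 CPM in wildtype (-0.21 ± 0.21). Per exon length, Insig1 was 4.87, 5.97 and 3.27 times as abundant as Insig2 in knockout 1, 2 and 3 and 3.39, 3.19 and 1.5 times in wildtype 1, 2 and 3. Knockout 3 lay between wildtype 1 and 2 in this ratio.

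The transcription factors themselves and Scap gave no called difference. Srebf2, which encodes the SREBP that favours sterol genes, measured 104, 103 and 86.0 CPM in knockout 1, 2 and 3 and 106, 131 and 71.9 CPM in wildtype 1, 2 and 3 (-0.07 ± 0.22). Srebf1, whose products favour fatty acid genes, measured 60.4, 57.4 and 59.6 CPM in knockout and 71.0, 95.7 and 54.3 CPM in wildtype (-0.32 ± 0.20). The knockout values of Srebf1 lay inside the wildtype range. Scap was the steadiest member, at 47.5, 49.3 and 46.4 CPM in knockout and 44.0, 49.2 and 46.6 CPM in wildtype (0.04 ± 0.14). The ratio of Srebf1 to Srebf2 per exon length was 0.741, 0.707 and 0.883 in knockout and 0.853, 0.930 and 0.963 in wildtype. It was above 0.853 in knockout 3, so the groups overlapped.

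Fatty acid synthesis genes had 4 positive values among 5, Scd2 at 0.00 among them, and the largest was that of Acly. Acly (gene ID 104112, chromosome 11, 100476352 to 100528000), which cleaves citrate to supply cytosolic acetyl-CoA, measured 98.1, 104 and 89.3 CPM in knockout 1, 2 and 3, against 81.0, 85.3 and 49.1 CPM in wildtype 1, 2 and 3. The lowest knockout library stood just above the highest wildtype library (0.43 ± 0.21, edgeR adjusted p = 0.366). Fasn, the fatty acid synthase, measured 244, 244 and 211 CPM in knockout and 202, 223 and 138 CPM in wildtype (0.31 ± 0.20). Acaca, which makes malonyl-CoA, was nearly level across libraries, at 13.3 to 15.2 CPM in knockout and 12.2 to 15.2 CPM in wildtype (0.12 ± 0.18).

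The stearoyl-CoA desaturases, which put the first double bond into saturated fatty acids, had no called difference, and their groups overlapped. Scd2 measured 223, 247 and 253 CPM in knockout 1, 2 and 3 and 236, 291 and 193 CPM in wildtype 1, 2 and 3 (0.00 ± 0.19). Scd1 measured 36.0, 31.3 and 40.4 CPM in knockout and 36.3, 38.8 and 40.9 CPM in wildtype (-0.11 ± 0.16, with a 95% interval from -0.46 to 0.24). Per exon length Scd2 was 4.22 to 7.06 times as abundant as Scd1 in every library. The pair are close paralogs that lie near each other on chromosome 19, and how reads shared between them were counted is not given in the sources used here.

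Per transcript length the module spanned a wide range of levels, given here as TPM, a level scaled to length and library, from the counts and the union of annotated exons. Scd2 stood first in the mean over all 6 libraries, at 253 ± 23.9 TPM in knockout and 250 ± 57.3 TPM in wildtype (SD, n = 3 each). Insig1 was next, at 256 ± 73.2 TPM in knockout and 160 ± 57.8 TPM in wildtype. Within knockout the means of Insig1 and Scd2 lay within one another's spread, with Insig1 above Scd2 in knockout 1 and 2 and below it in knockout 3. They were followed over all 6 libraries by Hmgcs1, Fasn, Cyp51 and Acly, whose means of 92.0 to 116 TPM lay within one another's spread. The lowest were Tm7sf2, at 3.40 ± 0.187 TPM in knockout and 3.89 ± 0.784 TPM in wildtype, Acaca and Lss. Along the mevalonate steps the first enzyme, Hmgcs1, averaged 116 TPM over all 6 libraries, while Mvk, Pmvk, Mvd, Fdps and Idi1 averaged 29.5, 31.9, 34.7, 18.1 and 8.43 TPM. The order depends on the length used: with the longest RefSeq-matched transcript Fdps averaged 40.4 TPM and Msmo1 65.1 TPM, against 18.1 and 29.4 TPM with the union of exons, while the 4 genes of highest mean over all 6 libraries kept their ranks.

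Much of the variation among members lay between libraries of 1 genotype. Wildtype 2 was the highest library for 10 of 28 genes (35.7%, against 21.2% of all genes tested), among them Mvd, Fdps, Fdft1, Sqle, Dhcr7, Srebf1 and Srebf2. Knockout 1 was the highest for another 10, among them Hmgcs1, Idi1, Cyp51, Hsd17b7, Sc5d and Stard4, against 13.4% of all genes. Wildtype 3 was the lowest library for 15 of 28 (53.6%, against 27.9% of all genes), among them Hmgcs1, Insig1, Fasn, Acly and Scd2. The ratio of highest to lowest library within a genotype had a median over the members of 1.38 in knockout and 1.71 in wildtype, compared with 1.28 and 1.56 over all genes tested. The wildtype ratio was the larger in 24 of 28 members and in 75.0% of all genes. Summed over the 28 genes, the level was 1530, 1490 and 1280 CPM in knockout 1, 2 and 3 and 1360, 1500 and 1030 CPM in wildtype 1, 2 and 3. The groups overlapped, with wildtype 3 the lowest library.

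**Figure D3:**
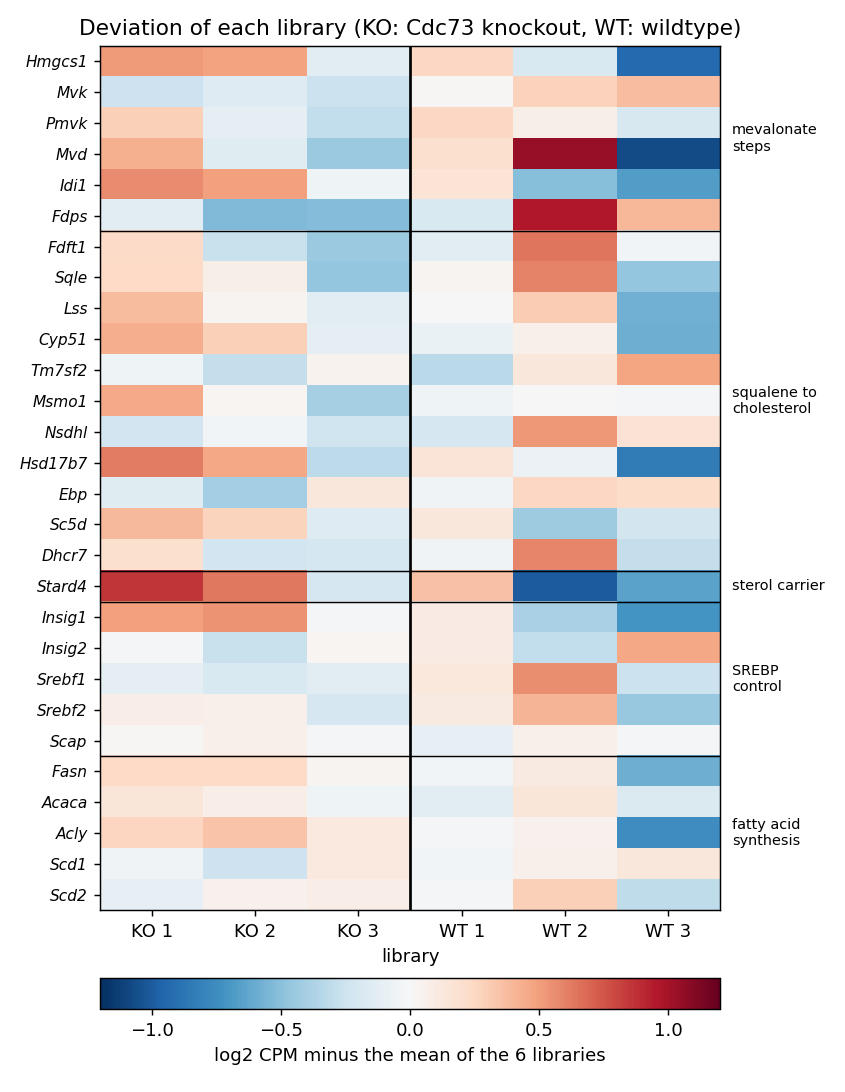
Log2 CPM of each gene in each library minus its mean over the 6 libraries, with knockout columns left of wildtype columns; red is above the mean and blue below. Wildtype 3 is the lowest library in 15 rows, and knockout 1 and wildtype 2 are each the highest in 10.

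Transcript length moved with these fold changes. Over the 28 members the log2 fold change and the length of the longest RefSeq-matched transcript correlated at Spearman's rho of 0.51 (n = 28 genes that share the same libraries), and over 12715 genes tested at 0.32. With the longest annotated transcript rho was 0.45 over the members and 0.31 over all genes, and with the union of exons 0.33 and 0.25. All 6 members with transcripts under 2000 bases, Pmvk, Fdps, Tm7sf2, Mvk, Ebp and Mvd, had negative values, as did 69.1% of all tested genes of that length. The median was 0.14 in the 14 longer members and -0.20 in the 14 shorter ones, divided at 3581 bases, against 0.14 and -0.11 over all tested genes divided at the same length. After the median of all genes in the same length bin was subtracted, 12 members were positive and 15 negative, with Insig1 at 0.72, Idi1 at 0.71, Stard4 at 0.70 and Fdps at -0.65. The part of transcript length in the fold changes was not tested further.

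**Figure D4:**
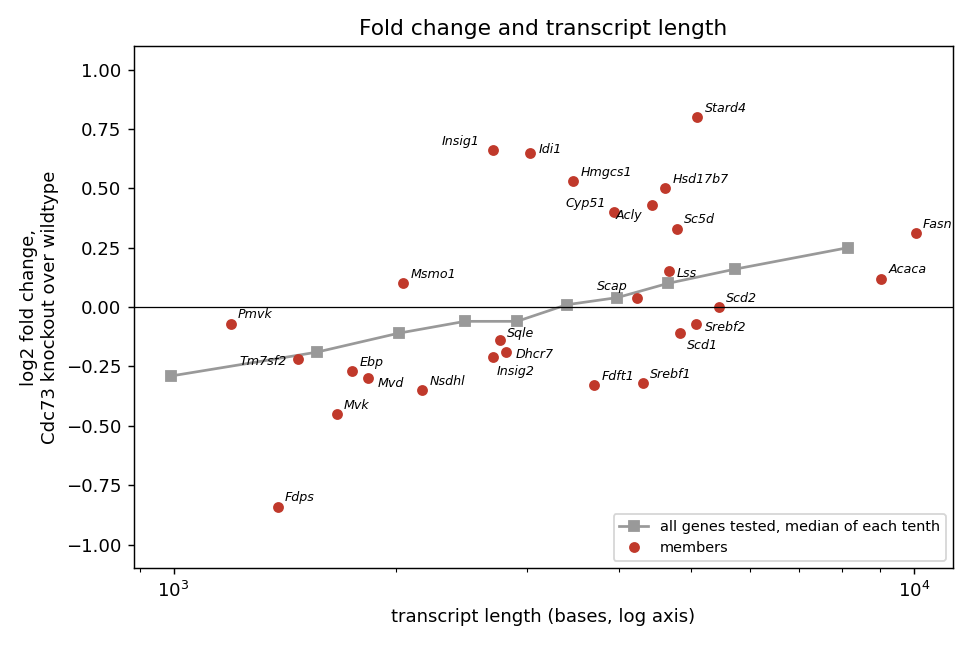
Log2 fold change of knockout over wildtype for each member (red points) against the length of its longest RefSeq-matched transcript on a log axis, and the median of all genes tested in each of 10 length bins (grey squares). The grey medians run from -0.29 in the shortest bin to 0.25 in the longest, and the 6 members under 2000 bases all lie below 0.

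The summed levels of chondrocyte, macrophage and endothelial markers were highest in knockout 1. That library was also the highest for 10 of 28 members, Hmgcs1, Idi1 and Stard4 among them. Wildtype 2 was the highest for another 10, and Insig1 was highest in knockout 2. Macrophage markers summed to 297, 234 and 138 CPM in knockout 1, 2 and 3 and to 112, 113 and 71.7 CPM in wildtype 1, 2 and 3, and endothelial markers to 194, 180 and 114 CPM in knockout and 112, 45.8 and 34.7 CPM in wildtype. All 8 macrophage and all 7 endothelial markers had positive fold changes. Adipocytes and myelinating glia, cell types with high lipid synthesis, were also checked. Of 7 adipocyte markers Cidec, Lep and Cfd were at 0 counts in all 6 libraries and only Fabp4, which endothelial cells also express, was abundant enough to test. The adipocyte sum was 8.97 to 19.7 CPM in knockout and 0.487 to 13.7 CPM in wildtype, most of it Fabp4. Adipoq, an adipocyte hormone gene, was at 0.247 to 0.36 CPM in knockout and 0.209 to 2.27 CPM in wildtype, highest in wildtype 3. The glial sum was 85.5 to 122 CPM in knockout and 75.6 to 84.0 CPM in wildtype, without overlap. Most of it was Pmp22, a myelin protein gene, at 78.1 to 98 CPM in knockout and 72.7 to 77 CPM in wildtype. The part of any of these cells in the values of Hmgcs1, Idi1, Stard4 and Insig1 was not tested.

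Other genes of lipid metabolism gave no called difference either. Of 14 further sterol genes 6 were positive and 8 negative (median -0.02), and 0 passed in either direction. Tmem97, the sigma-2 receptor and a SREBP-responsive gene, had the smallest p, with 30.6, 22.0 and 27.1 CPM in knockout 1, 2 and 3, against 33.8, 47.3 and 56.3 CPM in wildtype 1, 2 and 3 (-0.78 ± 0.22, edgeR adjusted p = 0.273). Every knockout library lay below every wildtype library, as in Dhdds, a subunit of the enzyme that makes dolichol precursors (-0.38 ± 0.17). That pattern was found in 2 of the 14 genes (14.3%) and in 9.81% of all genes tested.

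Of 22 further fatty acid genes 8 were positive and 14 negative (median -0.09), and 0 passed. Acsl3, which activates long-chain fatty acids, was at 41.7, 46.3 and 34.3 CPM in knockout and 29.8, 21 and 16.4 CPM in wildtype, with no overlap (0.86 ± 0.23, edgeR adjusted p = 0.273). Fads1, a desaturase of polyunsaturated fatty acids, lay lower in every knockout library (53.7, 56.7 and 50.7 CPM against 68.2, 73.9 and 64.3 CPM in wildtype, -0.36 ± 0.14). The groups did not overlap in 18.2% of the 22 genes, 1 higher and 3 lower in knockout, against 20.4% of all genes tested. Mcat, of mitochondrial fatty acid synthesis, was at -0.76 ± 0.30 with overlapping groups.

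The 13 genes of sterol uptake, storage and efflux had 7 positive and 6 negative values (median 0.04), and 0 passed. Abca1, the cholesterol efflux pump, and Mylip, a ubiquitin ligase, are both induced by the sterol-sensing LXR receptors. Abca1 measured 95.8, 104 and 123 CPM in knockout 1, 2 and 3 and 100, 54.9 and 72.2 CPM in wildtype 1, 2 and 3 (0.50 ± 0.22). Mylip measured 71.6, 87.1 and 62.4 CPM in knockout and 66.8, 48.5 and 30.7 CPM in wildtype (0.60 ± 0.26). In each gene wildtype 1 lay above the lowest knockout library, and the edgeR adjusted p-values were 0.342 and 0.34. Npc1, which releases cholesterol from lysosomes, was higher in every knockout library by a small amount (0.26 ± 0.15). That pattern was found in 2 of the 13 genes (15.4%) and in 10.6% of all genes tested.

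Among the 6 libraries, wildtype 1 was the one whose omission added a called member. EdgeR then called 1 of 28 members, Fdps, among 409 of 13823 genes tested. At an unadjusted p under 0.05 there were 7 members, and 3974 of all genes tested in that fit. Besides Fdps they were Stard4 (1.29), Idi1 (0.93), Insig1 (0.88), Hmgcs1 (0.81), Nsdhl (-0.53) and Mvk (-0.57). Apart from Fdps, their edgeR adjusted p-values ran from 0.0611 to 0.157. The groups did not overlap in 11 members, 5 lower and 6 higher in knockout, against 47.2% of all genes tested in that fit. Without knockout 3 the groups did not overlap in 12 members, 3 lower and 9 higher, against 37.7% of all genes, and without each of the other libraries in 3 to 5 members, against 23.7% to 30.7% of all genes. With library size alone as the scaling, Acly no longer lay higher in every knockout library. Without wildtype 2 the split of directions was 18 positive and 10 negative, with a median of 0.14. Whether wildtype 1 or the other 2 wildtype libraries better represent the genotype was not tested.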

How the data were processed

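RNA from 6 libraries was sequenced. The deposited table holds raw counts of reads per gene ID, made by the authors with CASAVA 1.7, Subread and featureCounts on mm10, per the submitters' processing notes; the strand setting is not given in the sources used here. Names and positions came from RefSeq for GRCm38.p6, the same assembly, with GENCODE M21 for 18 further IDs (93.1% named), and lengths from GENCODE M21.

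EdgeR 4.0.16 (R 4.3.3) was run on the 13505 genes kept by filterByExpr, with TMM factors of 0.813 to 1.09, the two-sided quasi-likelihood test over all 6 libraries without covariates, and Benjamini-Hochberg adjustment at 0.05. All 28 members were tested. The lowest member count in a library was 33. Fold changes are on the log2 scale, knockout relative to wildtype, ± SE. The procedure was tested on simulated data with the same dispersion for every gene, a simpler setting than these libraries. Alternatives used DESeq2 1.42.0, limma 3.58.1, other scalings and filters, the replicate number as a block, and the omission of each library.

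Every member could be named; values in every library were given for those of smallest p or highest level in each role group, and up to 4 genes of smallest p in the other lists. Members and lists were chosen with earlier results of these data known. The analysis of transcript length, the library orders and the RefSeq-matched lengths were added after seeing the data. No pair of libraries was alike within sampling noise (chi-square per degree of freedom of at least 18.3). One marker gene is not reported here.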

Additional observations from a re-analysis of the deposited data

How the results depend on the processing

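Of the 28 members, 0 were called in every fit except that without wildtype 1, where Fdps was called, and the members at an unadjusted p under 0.05 numbered 3 in the main analysis, 4 with DESeq2, 3 with voom, 6 with voom and quality weights, 8 with the replicate block and 0 to 7 with 1 library left out. Over all genes, 0 were called by edgeR, 24 without a filter on low counts, 248 by DESeq2 and 0 by voom with or without weights; leaving out 1 library gave 0 to 409. The labels do not say whether equal replicate numbers share a litter or day. Deviations from the group means correlated at 0.12, -0.07 and 0.22 between equal numbers and at -0.35 to 0.35 between unequal ones. With 3 libraries a group these values cannot settle whether the samples were paired. With the replicate block 236 genes and 0 members were called. The median over the members was -0.23 with library size alone, where that of all genes moved to -0.21 (a difference of -0.02), and from -0.12 to 0.14 with 1 library left out; with the length trend removed, an alternative chosen after seeing the data, it was -0.06. Groups did not overlap in 4 members, 4 lower and 0 higher in knockout, with library size alone (27.8% of all genes) and in 3 to 12 with 1 library left out (23.7% to 47.2% of all genes). The looser sterol element was found in 2 windows.

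Signs changed in 10 members, whose main values lay between -0.30 and 0.15, and the cause was not tested. With library size alone Lss was -0.03, Msmo1 -0.07, Scap -0.16, Acaca -0.08 and Scd2 -0.20. Scd2 was -0.02 with upper-quartile factors, -0.01 with no filter, -0.01 with the stricter filter and -0.02 with quality weights. With 1 library left out the values ran from -0.06 to 0.35 for Lss, -0.15 to 0.27 for Msmo1, -0.27 to 0.03 for Pmvk, -0.37 to 0.15 for Sqle, -0.14 to 0.15 for Scd2, -0.02 to 0.06 for Scap, -0.69 to 0.27 for Mvd, -0.37 to 0.08 for Dhcr7 and -0.29 to 0.12 for Srebf2. Cdc73 kept a negative value without passing in all alternatives. With 3 libraries a group, the intervals given show how far each fold change is bounded.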
